A study of Mus musculus with 2 samples.

Results

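Mir451a, Mir451b, Mir144 and Mir486 are microRNA (miRNA) genes best known from red blood cells. They were taken by symbol from the annotation of the 2202 miRNA genes measured in mouse heart, and make up 4 of those 2202 genes. The rule uses symbols and no measured value. The study sequenced small RNAs of whole mouse heart. The animals were females of B6CASTF1/J, a hybrid of a C57BL/6 and a CAST strain, at an age of 36 days, and no treatment is named in the labels. There was 1 group of 2 libraries, biological replicates 1 and 2. The labels name the tissue of each as that of a differently numbered female, but both records carry the same donor code. It is therefore not settled that the hearts came from separate animals. The p-values set the difference between these 2 libraries against counting error of reads alone and measure no spread between animals or libraries. The labels do not say whether blood was flushed from the hearts. No other tissue or condition was measured, so the comparisons here are between the hearts and between the genes.

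miRNAs are short RNAs that pair with messenger RNAs, chiefly through their seed (bases 2 to 8), and lower the output of those messages. Mir144 and Mir451a are transcribed together in developing red cells under the control of GATA factors. miR-451a is an exception among miRNAs, since its precursor is cut by the slicing protein Argonaute2 and not by Dicer. miR-451a lowers the 14-3-3 zeta protein encoded by Ywhaz. miR-144 lowers Nrf2, the master regulator of the response to oxidants. Mir486 lies inside Ank1, the gene of the ankyrin that anchors the red cell skeleton, and it is also abundant in striated muscle.

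The chromosome 11 genes form 1 compact locus. Mir144 lies at 78073005 to 78073070 on the plus strand (mm10), and Mir451a follows after 99 bases at 78073170 to 78073241 on the same strand. Mir451b has the same ends as Mir451a but lies on the minus strand, so each is the reverse complement of the other. No annotated host gene covers the 3 genes, and the nearest other gene within 10 kb is the protein-coding Eral1 on the minus strand, 134 bases beyond Mir451a. Mir486 lies at 23142555 to 23142682 on the plus strand of chromosome 8, in an intron of Ank1 and within the antisense gene Gm15816. It faces Mir3107 on the minus strand (23142573 to 23142662), which lies wholly within its ends.

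Mature sequences were found for 3 of the 4 members in RefSeq (GRCm38.p6). They are shown because the seed decides which messages each miRNA can pair with. The seed is in capitals.

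mmu-miR-451a: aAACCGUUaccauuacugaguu
mmu-miR-144-3p: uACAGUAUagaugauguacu
mmu-miR-144-5p: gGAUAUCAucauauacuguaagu
mmu-miR-451b: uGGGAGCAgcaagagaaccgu
mmu-miR-101a-3p: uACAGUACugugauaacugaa

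Mir486 had no entry under that symbol, so no seed is given for it. The 4 mature miRNAs of the other members have different seeds. No other among the 1738 mature sequences of the RefSeq table has the seed of any of them. miR-101a-3p, which is encoded elsewhere on chromosome 4, is listed beside them because its first 7 bases equal those of miR-144-3p. The first difference is U8C, counted from the 5′ end of miR-144-3p, so that bases 2 to 7 are shared and the full seed is not.

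The hairpins show where each mature RNA is cut from. Capitals mark the mature RNA (both arms in Mir144).

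Mir451a: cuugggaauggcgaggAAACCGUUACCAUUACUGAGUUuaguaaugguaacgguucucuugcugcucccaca
Mir451b: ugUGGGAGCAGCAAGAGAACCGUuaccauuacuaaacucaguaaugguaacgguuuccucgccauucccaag
Mir144: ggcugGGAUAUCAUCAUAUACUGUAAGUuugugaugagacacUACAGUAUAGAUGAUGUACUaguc

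The predicted fold of Mir451a was a long stem with a loop of 4 bases at its end, and the mature RNA ran from the 5′ arm through the whole loop. Its 22 bases occupied positions 17 to 38 of the 72-base hairpin, with the loop at positions 35 to 38. Of 1559 mature miRNAs in hairpins predicted to have a single end loop, 2 (0.128%) covered the loop in full, miR-451a and miR-468-5p. Both arms of Mir144 lay outside its loop of 6 bases (positions 31 to 36 of 66), as did miR-451b in its own fold (loop at positions 34 to 39). The predicted folding energy was -43.3 kcal/mol for Mir451a, -37.5 kcal/mol for Mir451b and -28.6 kcal/mol for Mir144, against a median of -32 kcal/mol over 1005 hairpins. The hairpin of Mir144 held 37.9% G and C bases, below the 47.2% of Mir451a and Mir451b and the median of 51.7%.

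**Figure D1:**
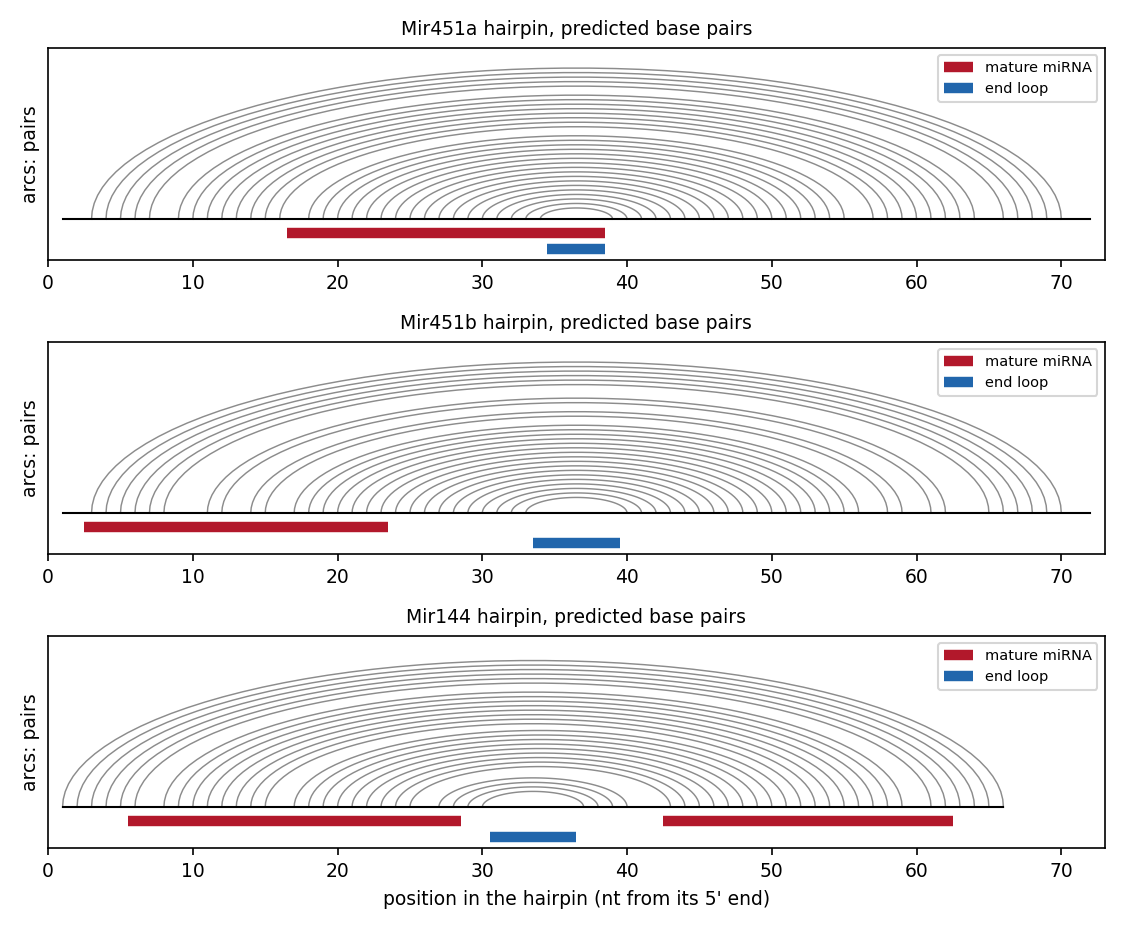
Predicted base pairs in the hairpins of Mir451a, Mir451b and Mir144, drawn as arcs over the position in the hairpin (nt from its 5′ end), with mature miRNAs in red and the end loop in blue. In Mir451a the mature RNA runs to the last base of the loop (position 38), while in Mir144 and Mir451b it stays outside the loop.

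Replicate 1 held 5606848 reads, of which 2074961 were assigned to the strand of a miRNA gene. Replicate 2 held 4990632, of which 1766135 were so assigned. Levels are counts per 1000000 (CPM) of those assigned sense-strand counts. The limit set for a gene without reads is 3 counts, worth 1.45 CPM in the first library and 1.70 CPM in the second. The intervals given are exact, at the 95% level, and cover counting error only, since PCR reads without molecular identifiers are not independent molecules. As a check of the tissue, the 9 genes of a cardiomyocyte list reached a total of 6211 CPM in the first library and 8752 CPM in the second, led by Mir208a of the cardiac myosin gene Myh6 and Mir499 of the myosin gene Myh7b. The miR-1 and miR-133 genes of that list were low, with at most 121 counts (Mir1a-2) and Mir1b at 0 in replicate 1. Reads that mapped to several places are in no gene's count, so genes with near copies can be counted low. Levels compare reads between genes and were not divided by hairpin length, since the labels give the libraries a size range under 30.

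Mir451a had the most assigned counts of the members in both hearts and was the one that differed most between them. It had 85885 counts in replicate 1, or 41391 CPM (41115 to 41669), and 10135 counts in replicate 2, or 5739 CPM (5627 to 5851). It stood at rank 10 of all miRNA genes in replicate 1 and at rank 25 in replicate 2. Alone it took 4.14% of all assigned counts in the first heart and 0.574% in the second. The mean of 23565 ± 25210 CPM (SD, n = 2) has an SD above the mean, so no single level describes Mir451a in this tissue. By mean level its neighbours were Mir26b, with 16313 and 35199 CPM, and Mir149, with 18223 and 17884 CPM. Both lay below Mir451a in replicate 1 and above it in replicate 2.

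Mir144 followed its neighbour in both hearts at a lower level. It had 7067 counts in replicate 1, or 3406 CPM (3327 to 3486), and 1649 counts in replicate 2, or 934 CPM (889 to 980). The mean was 2170 ± 1748 CPM (SD, n = 2), and the rank moved from 32 in replicate 1 to 69 in replicate 2. The files give 1 count for each gene, so the arms miR-144-5p and miR-144-3p cannot be told apart. Mir15b, with 3435 and 1295 CPM, and Mir28a, with 2341 and 1702 CPM, were its neighbours by mean level.

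Mir486 differed less between the hearts than Mir451a and Mir144. It had 2266 counts in replicate 1, or 1092 CPM (1048 to 1138), and 1620 counts in replicate 2, or 917 CPM (873 to 963), with a mean of 1005 ± 124 CPM (SD, n = 2). Its ranks were 64 and 70. Reads that also match Mir3107 on the other strand are in neither gene's count, so the level and ranks of Mir486 can be low. How far this changes its difference between the hearts was not tested. Mir324, with 925 and 1135 CPM, and Mir532, with 912 and 1096 CPM, stood next to Mir486 by mean level.

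Mir451b had no count on its own strand in either heart, where the limit of 3 counts is 1.45 and 1.70 CPM and the exact upper bound is 1.78 and 2.09 CPM. Together the 4 members made up 4.59% of assigned counts in replicate 1 and 0.759% in replicate 2. Mir451a supplied 90.2% of the members' counts in replicate 1 and 75.6% in replicate 2. Because the count of Mir486 can be low, this share of Mir451a can be too high.

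**Figure D2:**
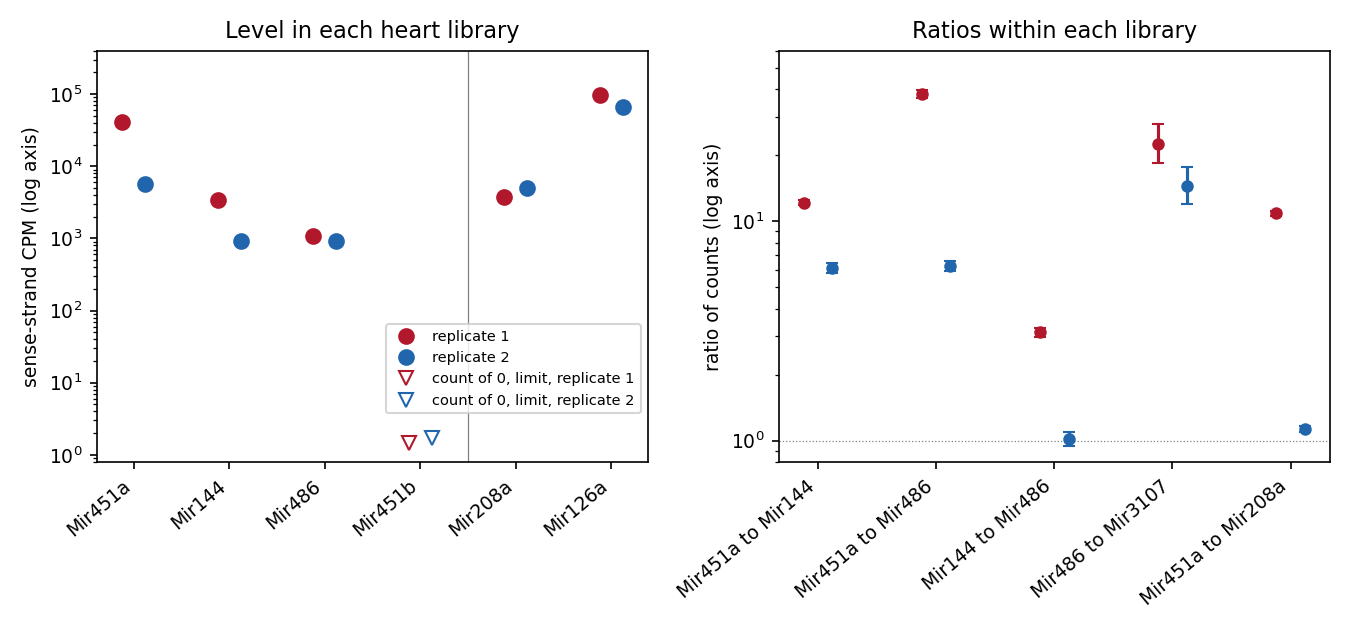
Left, sense-strand CPM (log axis) of the members in each library, with Mir208a (cardiomyocyte) and Mir126a (endothelial) for scale; open triangles mark the limit that a count of 0 allows for Mir451b. Right, ratios of counts within each library (log axis) with 95% exact intervals. Replicate 1 lies far above replicate 2 for Mir451a (41391 against 5739 CPM) and less far above it for Mir486 (1092 against 917 CPM), and the ratio of Mir144 to Mir486 falls from 3.12 to 1.02.

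All 3 members with counts were higher in replicate 1 than in replicate 2, by very different amounts. Fold differences here use library sizes scaled with edgeR's TMM method (a trimmed mean of log ratios). The split of a gene's counts between the libraries was put to an exact binomial test, two-sided, with Benjamini-Hochberg adjustment over the 359 genes that had at least 10 counts. This test compares 2 libraries beyond counting error and says nothing of conditions. Mir451a was 8.11-fold higher in replicate 1 (exact interval 7.95 to 8.28) and Mir144 was 4.10-fold higher (3.89 to 4.33). The adjusted p of both in that binomial test was 0, below what double precision can hold. Mir486 was 1.34-fold higher (1.26 to 1.43; adjusted p = 1.1e-18 in the same binomial test). These 3 calls stand against a background in which 24.2% of the tested genes were higher in replicate 1 at an adjusted p under 0.05 (87 of 359, with 72 higher in replicate 2). Plain library size in place of TMM gave 67 and 103, and DESeq2 size factors gave 96 and 60, where TMM moves each log2 ratio by -0.17 from library size. Mir451a and Mir144 also exceeded 2-fold, as did 7.52% of the tested genes in that direction (27 of 359), and Mir486 did not.

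Counted from the largest ratio towards replicate 1, Mir451a stood at position 2 of 359 tested genes, Mir144 at position 9 and Mir486 at position 94. Among the 246 genes with 50 or more counts their positions were 2, 7 and 67. A whole heart is a mixture of cells, so a smaller amount of red cells and less of these RNAs per cell cannot be told apart. With 1 group, a difference between hearts and a difference between library preparations cannot be told apart either.

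Ratios between members within a library need no scaling. They show that the assigned counts of the members did not move together by a common factor. There were 12.2 reads of Mir451a per read of Mir144 in replicate 1 (exact interval 11.9 to 12.5) and 6.15 in replicate 2 (5.83 to 6.48). The ratio therefore differed 1.98-fold between the hearts although the genes lie 99 bases apart (Fisher's exact test, adjusted p = 2.3e-107 over 3 ratios). Per read of Mir486 there were 37.9 reads of Mir451a in replicate 1 (36.4 to 39.5) and 6.26 in replicate 2 (5.94 to 6.60), a difference of 6.06-fold (Fisher's exact test, adjusted p = 0 at double precision). Mir144 to Mir486 was 3.12 (2.97 to 3.27) in replicate 1 and 1.02 in replicate 2 (upper bound 1.09), a 3.06-fold difference (Fisher's exact test, adjusted p = 1.7e-152). In replicate 2 the interval of that last ratio holds 1, so the assigned counts of Mir144 and Mir486 were not told apart there. In replicate 1 the count of Mir144 was the higher. Because the count of Mir486 can be low, ratios of other genes to it can be too high. How far the missing reads change the 6.06-fold and 3.06-fold differences between the hearts was not tested. The ratio of Mir451a to Mir144 does not involve Mir486.

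The standing of the members against markers of other cells also differed between the hearts. Mir208a, counted 7904 and 8952 times, was at 3809 CPM in replicate 1 and 5069 CPM in replicate 2. There were 10.9 reads of Mir451a per read of Mir208a in replicate 1 (10.6 to 11.1) and 1.13 in replicate 2 (1.10 to 1.16). Mir144 stood at 0.894 reads per read of Mir208a and then at 0.184, and Mir486, whose count can be low, at 0.287 and 0.181. The endothelial gene Mir126a, at 97017 and 65811 CPM, exceeded Mir451a by 2.34 times in replicate 1 and by 11.5 times in replicate 2.

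A list of 20 measured genes that are broadly expressed and known to be abundant in red cells was examined beside the members. It was chosen with earlier results of these data known. Of its 17 tested genes, 10 were higher in replicate 1, 2 were higher in replicate 2 and 5 did not pass the binomial test (8 and 4 higher under plain library size, 11 and 1 under DESeq2 size factors). Over all 359 tested genes, 87 (24.2%) were higher in replicate 1 and 72 in replicate 2. The list's median log2 ratio of replicate 2 over replicate 1 was -0.41, against -0.01 over all tested genes. The sum over the list was 31206 CPM in the first heart and 28464 CPM in the second, with Mir191 and Mir93 as its most abundant genes. Mir107, in a pantothenate kinase gene, was 6.31-fold higher in replicate 1 (5.69 to 7.01), with 2788 and 423 counts. Of the 4 miR-15 and miR-16 genes, which restrain the cell cycle, 3 were higher in replicate 1. Mir15b was 2.98-fold higher in replicate 1 (2.85 to 3.13), Mir15a 2.35-fold (2.19 to 2.53) and Mir16-1 1.51-fold (1.44 to 1.59). Mir16-2, with 488 and 404 counts, did not pass the binomial test (adjusted p = 0.069).

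The genes of the miR-106b cluster, Mir106b, Mir93 and Mir25, were also higher in replicate 1, by 1.72-fold, 1.32-fold and 1.13-fold. The call of Mir25 ended under plain library size (adjusted p = 0.99 in the same binomial test) and under all reads as library size (adjusted p = 0.43). Mir92-1, a member of the miR-17 cluster, was 1.23-fold higher in replicate 2 (1.18 to 1.27), a call that ended when libraries were scaled to the cardiomyocyte list (adjusted p = 0.37 in the binomial test). Mir191, the most abundant gene of the list at 10596 and 12551 CPM, was 1.05-fold higher in replicate 2. Its call ended under DESeq2 size factors (binomial test, adjusted p = 0.56) and its direction turned under the cardiomyocyte scaling. None of the 17 reached the 8.11-fold difference of Mir451a, and Mir107 alone exceeded the 4.10-fold difference of Mir144. Mir107, Mir16-1 and Mir16-2 have near copies, so their counts are uncertain. Sequence shared with other hairpins was not searched for the genes of this list, so the same can hold for others.

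Leukocyte markers moved in mixed directions, while the 2 endothelial genes that passed the test were higher in replicate 1. Over all tested genes, 24.2% were called higher in replicate 1. The part of these markers in the members' difference was not tested. Of 8 leukocyte genes, 6 were tested. Mir142 was 2.57-fold (2.28 to 2.89), Mir146 1.44-fold (1.36 to 1.53) and Mir342 1.07-fold higher in replicate 1, the last with a call that ended and a direction that turned under plain library size and under all reads as library size (binomial test, adjusted p = 0.11 and 0.96). Mir150, a lymphocyte miRNA, was 1.79-fold higher (1.69 to 1.89) and Mir223, a myeloid miRNA also found in platelets, 2.12-fold higher (1.59 to 2.85) in replicate 2, with Mir155 1.08-fold higher there. The call of Mir155 ended under DESeq2 size factors (binomial test, adjusted p = 0.11) and its direction turned when libraries were scaled to the cardiomyocyte list. The leukocyte list totalled 7016 and 8130 CPM, with Mir142b at 0 in both hearts and Mir146b at 0 in replicate 1. All 4 endothelial genes had counts, 3 were tested, and Mir126a (1.66-fold) and Mir221 (2.20-fold) were higher in replicate 1. Mir222 did not pass the binomial test (adjusted p = 0.70), and its direction turned under plain library size. The endothelial list summed to 99059 and 66887 CPM. Of the 7 tested cardiomyocyte genes, Mir1a-2 was higher in replicate 1 and Mir208a, Mir499 and Mir133b in replicate 2. Mir208a turned when libraries were scaled to that list, but it is the largest part of the list's sum, so that scaling cannot judge its call. The call of Mir133b, with 2 and 10 counts, ended under that scaling and under DESeq2 size factors (binomial test, adjusted p = 0.13 and 0.084).

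**Figure D3:**
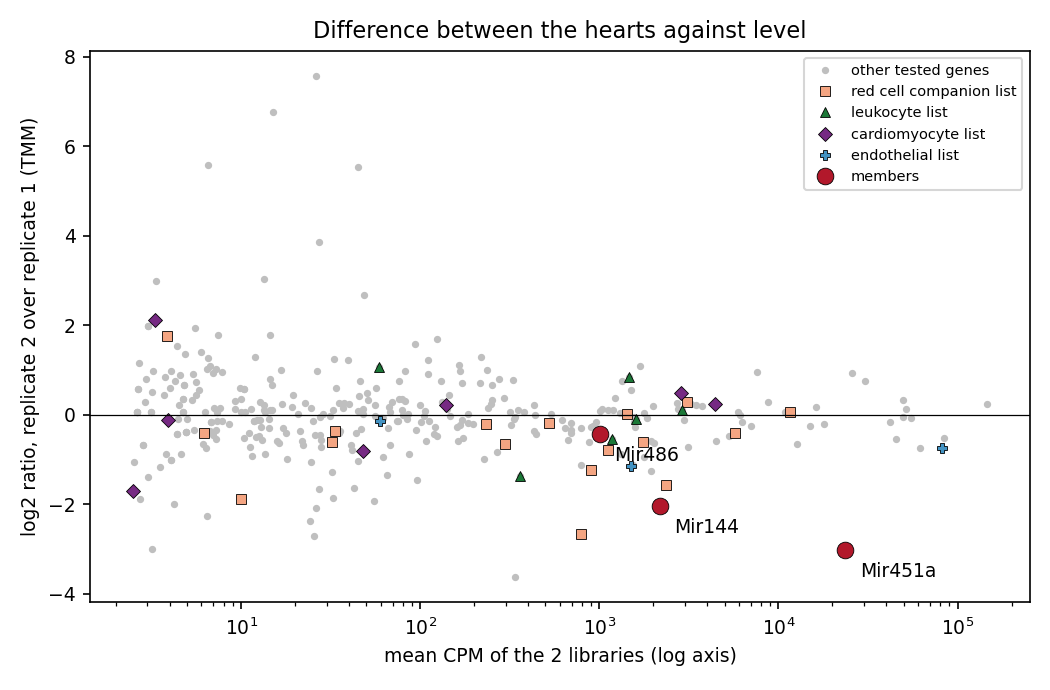
Log2 ratio of replicate 2 over replicate 1 (TMM-scaled) against the mean CPM of the 2 libraries (log axis) for the 359 tested genes, with the members as red circles and the marker lists by symbol. Mir451a (-3.02) and Mir144 (-2.04) lie far below 0 and Mir486 (-0.42) sits nearer to the median of all tested genes (-0.01).

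Among the 211 genes with 100 or more counts, the 5 with the log2 ratio nearest to that of Mir451a (-3.02) were Gm23935 (-2.70), Mir107 (-2.66), Mir31 (-3.63), Mir6538 (-2.09) and Mir144 (-2.04). Mir144 was the farthest of these 5 in ratio, behind 4 genes from other chromosomes, all of them far less abundant than Mir451a. Mir451a was not among the 5 nearest to Mir144. Nearest to Mir144 were Mir6538, Mir298, Mir449a, Gm26117 and Mir193a, at ratios from -2.09 to -1.63. Nearest to Mir486 (-0.42) were Mir379, n-TSaga9, Mir337, Mir3057 and Mirlet7a-1, from -0.44 to -0.40. With 2 libraries, likeness rests on a single ratio per gene.

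Mir101a, whose mature sequence above shares its first 7 bases with miR-144-3p, and Mir101b and Mir101c, which share its number, were chosen after their values were seen. Mir101a and Mir101b were higher in the other replicate than Mir144. Mir101a had 105 counts in replicate 1 and 200 in replicate 2 and was 1.99-fold higher in replicate 2 (1.56 to 2.54; binomial test, adjusted p = 2.1e-08). Mir101b had 187 and 303 counts and was 1.69-fold higher in replicate 2 (1.41 to 2.04; binomial test, adjusted p = 4.0e-08). At 81.9 ± 44.3 and 131 ± 57.6 CPM (SD, n = 2), both stood below Mir144 in each heart. Mir101c had no count.

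The files give counts on the gene's strand, on the opposite strand and without regard to strand, and the choice decides whether Mir451a is seen at all. Without regard to strand Mir451a, Mir451b, Mir486 and Mir3107 had 0 counts in both hearts, and the row for ambiguous reads held 601257 reads in replicate 1 and 470280 in replicate 2, against 0 when strand was used. The reads of Mir451a are equal in number to 14.3% of that row in the first heart and 2.16% in the second. On the opposite strand of Mir451a there was no read in either library, and the opposite-strand count of Mir451b equalled the sense count of Mir451a. All reads placed at this position were therefore on the strand of Mir451a. Mir144 faces no gene and had the same count with and without strand, with no opposite-strand read.

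At the Ank1 locus both strands were counted. Beside the 2266 and 1620 reads of Mir486 there were 101 and 112 reads of Mir3107, which were 48.7 and 63.4 CPM. Mir486 exceeded Mir3107 by 22.4 times in replicate 1 (18.4 to 27.7) and by 14.5 times in replicate 2 (11.9 to 17.7). Reads that match both genes are in neither count, so these ratios describe only the reads that could be placed. Mir3107 did not pass the binomial test between the hearts (0.863-fold in replicate 1 over replicate 2, exact interval 0.653 to 1.14, adjusted p = 0.45).

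**Figure D4:**
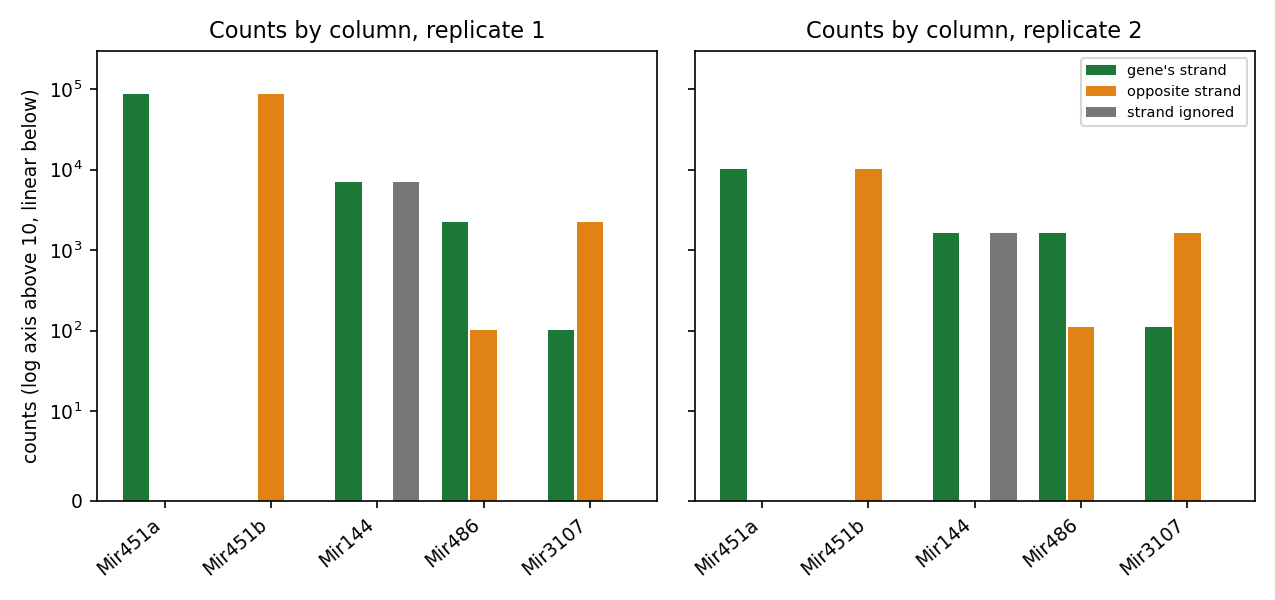
Counts of Mir451a, Mir451b, Mir144, Mir486 and Mir3107 in each library by counting column: the gene's strand, the opposite strand, and strand ignored (log axis above 10, linear below). Mir451b has reads only on its opposite strand, equal in number to those of Mir451a (85885 and 10135), and no gene that faces another has reads when strand is ignored.

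Sequence shows which of these reads could be placed. The best ungapped match of miR-451a to the Mir451b hairpin differed at 4 of 22 bases, A1G, G18A, G20A and U21C (positions from the 5′ end of miR-451a, its base first), with 16 bases in a row shared. Among all 2202 annotated hairpins, no run of 18 bases of Mir451a, Mir451b or Mir144 occurred in another hairpin. Mir486 shared 10 of its 111 runs of 18 bases with Mir3107 and 2 of its 107 runs of 22 bases. A read lying wholly within such a shared run matches both strands of the locus, so the counts of Mir486 and Mir3107 can be low. The multi-mapping rows held 42.0% of reads in replicate 1 and 39.8% in replicate 2, and how many of them came from miR-486 was not tested. Matches outside annotated hairpins were not searched.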

How the data were processed

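The authors deposited raw counts per GENCODE M21 miRNA gene on mm10, per the deposited notes. Aligner, counter and trimming: not given in the sources used here. Rows naming no gene stayed out of library sizes: unmapped reads were 15.2% and 16.5%, multi-mapping reads 42.0% and 39.8%, and reads outside genes 5.82% and 8.35% in replicates 1 and 2. Replicate numbers come from the sample descriptions. The age field gives days, while a free-text label says months. The age field was used. Members and lists were chosen with earlier results of these data known. All 2202 gene IDs matched GENCODE M21.

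CPM used sense-strand counts over gene rows (1 read equals 0.482 and 0.566 CPM). Log2 ratios used TMM sizes (edgeR 4.0.16) with 0.5 added as a prior count. The exact binomial test (SciPy 1.17.1) took genes with at least 10 counts, at a Benjamini-Hochberg adjusted threshold of 0.05. DESeq2 1.42.0 gave alternative size factors. No model with residual degrees of freedom could be fitted to a difference between 2 libraries. Hairpins were folded with RNAfold 2.7.2. Named genes were the members, genes facing them or within 10 kb, genes of the marker lists, the 5 genes nearest in ratio and those next in mean CPM. Outside this rule, Mir101a, Mir101b and Mir101c were added after their values were seen, and miR-468-5p was named from the predicted folds. The scripts were tested on simulated data.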

Additional observations from a re-analysis of the deposited data

How the results depend on the processing

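The members' differences kept their direction and their side of the threshold under every scaling, prior count and filter tried. Over these settings Mir451a ranged from 7.21-fold to 10.2-fold higher in replicate 1, Mir144 from 3.65-fold to 5.14-fold and Mir486 from 1.19-fold to 1.68-fold, with the lowest for library size alone and the highest for the sum of the cardiomyocyte list. The largest adjusted p of Mir486 in the binomial test was 2.6e-07. Mir144 alone could also be computed from counts without regard to strand, where its fold was 4.22. With all reads as library size, the mean of Mir486 moved to 364 CPM, that of Mir451a to 8674 CPM and that of Mir144 to 795 CPM, because the denominator then holds reads assigned to no miRNA gene. Leaving out either replicate leaves 1 library, whose values the report gives, so no ratio between hearts can be formed. No paired analysis was possible because there is 1 group. The number of differing genes stayed within 148 to 170 of a main count of 159. Counting error is small at these depths, and 2 libraries limit the precision.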
